A study of Mus musculus with 2 samples.

Results

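Uchl1 and Uchl3 are genes for ubiquitin C-terminal hydrolases, and their transcripts were counted in single mouse germ cells with or without FGF9. The genes were named in advance as 2 of the 32285 in the matrices, with the high level of Uchl1 and its difference between the libraries already known, so those values are a description and were not tested. The cells are an established culture of THY-1+ germ cells, which is enriched for spermatogonial stem cells (SSC), on STO feeders, a mouse fibroblast line. Sample labels give passages 9 to 12, with a slightly wider range in 1 label of the FGF9‐treated sample. The study's single-cell methods give passage 12. The control was labelled 0 ng FGF and the FGF9‐treated culture 20 ng/ml FGF9, both for 48 h. The growth medium of both was supplemented with GDNF (20 ng/ml), GFRA1 (150 ng/ml) and FGF2 (1 ng/ml). By the study's description, the control was switched to medium with albumin and without growth factors for the treatment, so it is a culture deprived of them. Whether the FGF9‐treated culture kept GDNF and GFRA1 over that time is not given in the sources used here. There was 1 library per treatment. By the study's methods it held cells derived from several mice, which the barcodes do not tell apart. No difference between treatments could therefore be tested, and a range in parentheses after a value is a 95% interval that covers counting error alone.

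Germ cells were barcodes with at least 2000 genes, at most 20% mitochondrial UMIs and fewer than 40 UMIs of Vim plus S100a6, a pair of fibroblast genes. This left 4157 of 5312 control barcodes, with a median of 14824 UMIs, and 4537 of 5959 FGF9‐treated barcodes, with a median of 13067. The summed germ cell UMIs were 67689739 and 67068085. Dazl, an RNA-binding protein of germ cells, had a UMI in every germ cell of both libraries. Of 3 Leydig cell genes, Cyp17a1 and Hsd3b1 had none, while Star had a UMI in 6.25% of control and 6.68% of FGF9‐treated cells. The Sertoli cell genes Wt1, Sox9 and Amh were found in 6.93%, 2.24% and 0.168% of control cells. With FGF9 the shares were 6.90%, 4.67% and 0.110%. The libraries shared 11 barcode sequences, 10 of them among germ cells.

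Ubiquitin C-terminal hydrolases are cysteine proteases that cut small adducts from the end of ubiquitin and help to keep free ubiquitin available. UCHL1, also called PGP9.5, is a classic marker of neurons and, in the testis, of spermatogonia. UCHL3 is its close relative, found in many tissues, and also acts on the ubiquitin-like protein NEDD8. In the mm10 annotation Uchl1 (ENSMUSG00000029223) lies at chr5:66676091-66687234 on the plus strand and Uchl3 (ENSMUSG00000022111) at chr14:101653967-101696125, also on the plus strand. Uchl4 (ENSMUSG00000035337), at chr9:64235201-64236362, has a single exon and nearly the same coding sequence as Uchl3. The coding stretch of 63 bases around the catalytic cysteine codon is shown for the 3 genes because it holds what the paralogs share, with that codon in capitals:
Uchl1: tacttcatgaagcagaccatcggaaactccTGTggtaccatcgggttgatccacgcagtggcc
Uchl3: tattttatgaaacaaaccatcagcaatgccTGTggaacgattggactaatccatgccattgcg
Uchl4: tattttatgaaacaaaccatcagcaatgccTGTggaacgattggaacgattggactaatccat
The codon stood at coding bases 268 to 270 of Uchl1 and 283 to 285 of Uchl3. Uchl1 and Uchl3 were identical at 44 of these 63 bases and at 63.6% of their aligned coding bases. The last 300 bases of their transcripts, where a 3′ library reads, shared no identical run longer than 9 bases, so their counts were not open to exchange. Uchl3 and Uchl4 were identical at 97.4% of aligned coding bases, and a run of 123 bases from the last 300 of Uchl3 recurred in Uchl4. The split of reads between Uchl3 and Uchl4 is therefore uncertain, and the counts of Uchl3 may lack reads that fitted both.

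Uchl1 was among the most abundant transcripts of control germ cells and stood far lower in FGF9‐treated cells, whereas Uchl3 was at the same level in both. Uchl1 had 91047 UMIs over the control germ cells and 43452 over the FGF9‐treated ones. As CPM, the count scaled to a common total of germ cell UMIs, this was 1345 (1336 to 1354) against 648 (642 to 654), a log2 ratio of -1.05 (-1.07 to -1.04). By summed UMIs Uchl1 was number 83 of all genes in control and number 174 in FGF9‐treated cells. Uchl3 had 7135 and 7058 UMIs, which is 105.4 (103 to 108) against 105.2 (103 to 108) CPM and a log2 ratio of -0.0023 (-0.050 to 0.045). Because 1 end of each transcript is counted, these levels can be set side by side without correction for length: the control level of Uchl1 was above that of Uchl3, and it remained so with FGF9.

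For comparison, 8877 genes reached 10 CPM in control or with FGF9, and 81 of them (0.912%) had a log2 ratio at or below -1, as Uchl1 did. The rates were 5.95% at or below -0.5 and 5.78% at or above 0.5, and the median ratio of these genes was -0.03. Among the 229 genes with 500 CPM or more in control, Jund, a subunit of the AP-1 transcription factor, was the only gene with a lower ratio than Uchl1 (-1.21); it is named because it was the single exception. Uchl1 was itself chosen with its ratio in view, so its place among these genes is a description.

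The other hydrolases of the family did not share the difference of Uchl1. Uchl5, which trims ubiquitin at the proteasome, had 47.6 CPM in control against 62.0 CPM with FGF9 (log2 ratio 0.38, 0.31 to 0.45). Bap1, which removes ubiquitin from histone H2A, stood at 35.2 and 31.3 CPM (-0.17, -0.25 to -0.08). Uchl4 was barely detected, with 184 and 181 UMIs (-0.01, -0.31 to 0.29). Of the 5 family members 4 reached 10 CPM. Of these 1, Uchl1, was at or below -0.5 and none at or above 0.5, beside 5.95% and 5.78% of all genes.

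A further transcript at the locus, the antisense gene Uchl1os (chr5:66626495-66676498, minus strand), overlaps Uchl1 by 408 bases at the start of that gene. It had 330 UMIs in control and 73 with FGF9, or 4.88 and 1.09 CPM, a log2 ratio of -2.16 (-2.55 to -1.79). Both transcripts of the locus were thus lower in the FGF9‐treated library. A UMI of Uchl1os was found in 7.12% of control and 1.54% of FGF9‐treated cells.

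Per cell, the difference in Uchl1 was spread over the whole distribution, which had a single peak in each library. A UMI of Uchl1 was present in 4150 of 4157 control cells (99.8%) and in 4314 of 4537 FGF9‐treated cells (95.1%). Scaled to 10,000 UMIs per cell, the median cell had 13.1 in control and 5.35 with FGF9, the lowest cell 0 in both, and the highest 36.1 and 34.5. The highest values are those of a single cell in each library. At or above the control median were 9.46% of FGF9‐treated cells (8.62 to 10.3), and 56.7% (55.2 to 58.1) were below the value that 10% of control cells stayed under. Below 25% of the control median were 31.6% of FGF9‐treated cells (95% interval 30.3 to 33.0) and 3.32% of control cells (2.80 to 3.91).

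Percentile by percentile, the difference was not the same fold. At percentile 5 of the cells Uchl1 was 4.20 per 10,000 in control and 0.477 with FGF9, a log2 ratio of -3.14. No Uchl1 UMI was found in 4.92% of FGF9‐treated cells, so this low end rests on very few UMIs per cell. Counting error widens the low percentiles, and its part in these ratios was not tested. At percentile 25 the values were 9.37 and 2.60 (-1.85), at percentile 50 the ratio was -1.29, and at percentile 75 the values were 16.8 and 8.87 (-0.92). At percentile 95 they were 22.7 and 15.1 (-0.58). The upper percentiles thus differed least in fold. In absolute terms the gap was almost even over the upper part of the range, at -7.71 per 10,000 at percentile 50, -7.95 at percentile 75 and -7.55 at percentile 95, and it was smaller at percentile 5 (-3.72), where the control value set its limit. The ratio of percentile 90 to percentile 10 was 3.30 in control and 11.5 in FGF9‐treated cells, and it too depends on the low end. Dazl shifted by 0.02 to 0.09 on the log2 scale over the same percentiles. Ddx4, a germ cell RNA helicase, shifted by -0.29 at percentile 5 and by -0.01 to -0.08 from percentile 25 up.

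**Figure D1:**
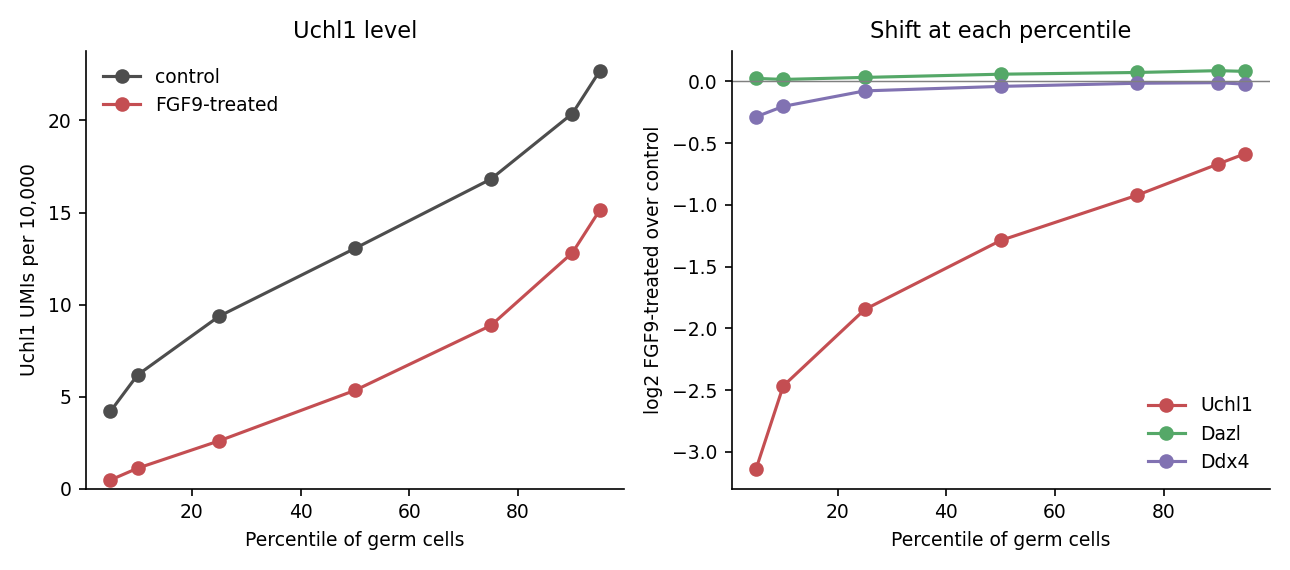
Left, Uchl1 UMIs per 10,000 at 7 percentiles of germ cells (x axis) in control and FGF9‐treated cells. Right, the log2 ratio of FGF9‐treated over control at each percentile for Uchl1, Dazl and Ddx4. Uchl1 goes from -3.14 at percentile 5 to -0.58 at percentile 95, while Dazl stays near 0. The lowest percentiles of Uchl1 with FGF9 rest on few UMIs per cell.

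Depth differs between cells, so the shape of the distribution was examined in cells that were each sampled down to 5000 UMIs; 16 control and 22 FGF9‐treated cells were too shallow for this. The most frequent count of Uchl1 was 6 UMIs in control and 1 UMI in FGF9‐treated cells, and each library had a single peak. The mean was 6.66 against 3.12 UMIs. Cells without a UMI made up 1.30% of control and 14.7% (13.7 to 15.8) of FGF9‐treated cells, where a Poisson distribution of the same mean gives 0.127% and 4.40%. Uchl1 thus varied between cells beyond counting error in both libraries, and more so with FGF9. The variance was 1.83 and 2.41 times the mean, and the coefficient of variation (CV) left after the Poisson part was taken off was 0.352 in control and 0.672 in FGF9‐treated cells. For Dazl the same measure was 0.207 and 0.194 and for Ddx4 0.182 and 0.181. Among the 765 genes with a mean of at least 1 UMI in both libraries, 94 had a higher CV of this kind than Uchl1 in control and 13 in FGF9‐treated cells, and the median gene had 0.244 and 0.265.

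Uchl3 lay close to the Poisson shape. No UMI of Uchl3 was left after thinning in 59.5% of control cells and in 60.2% with FGF9, the mean was 0.524 and 0.518 UMIs, and the CV beyond Poisson was 0.169 and 0.255. At so low a mean this measure is imprecise. In pairs of 1 control and 1 FGF9‐treated cell the control cell had more Uchl1 in 79.6% of pairs and more Uchl3 in 50.3%, with ties shared equally.

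**Figure D2:**
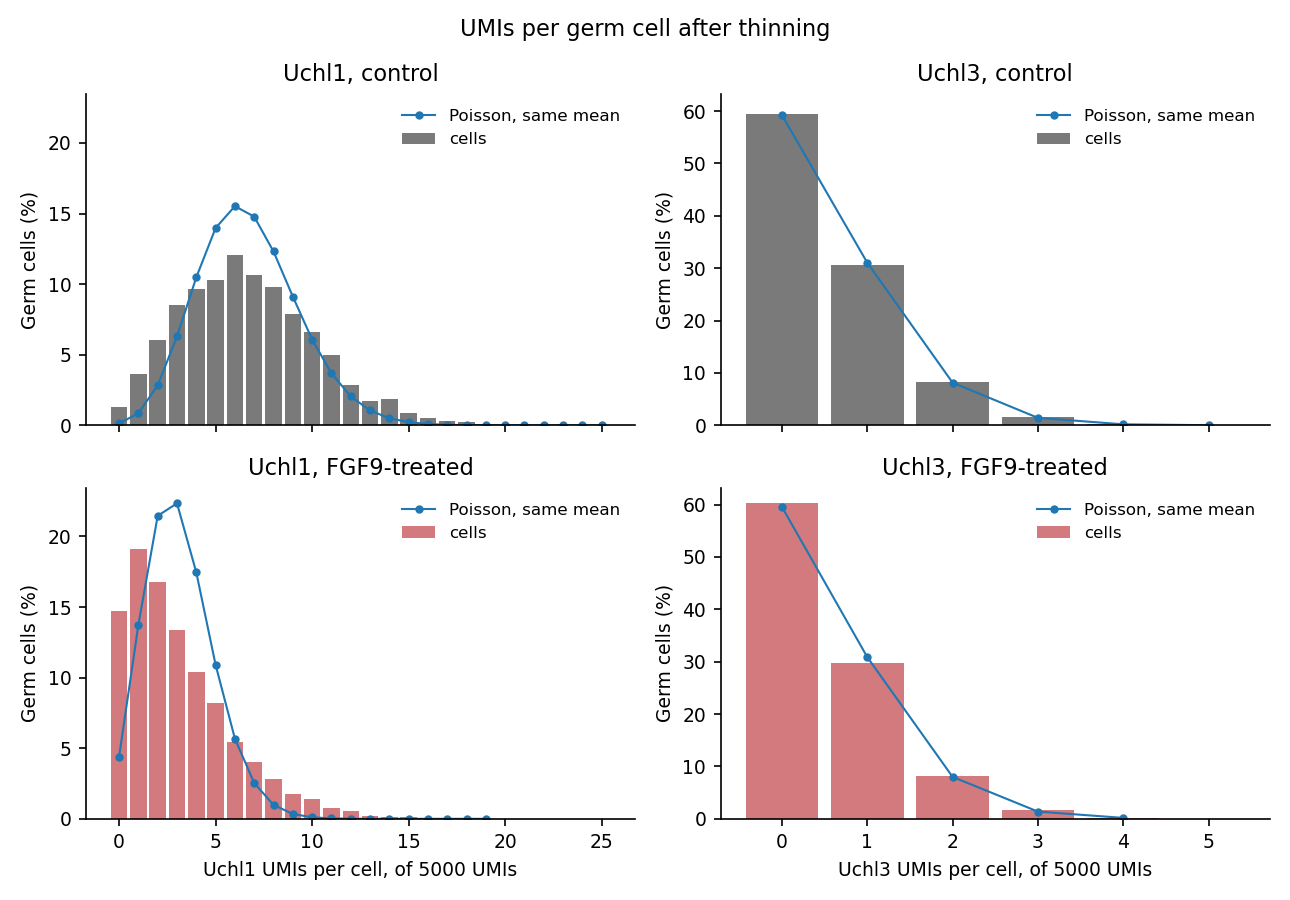
Share of germ cells (y axis, %) with each number of UMIs per cell after thinning to 5000 UMIs, for Uchl1 (left) and Uchl3 (right) in control (top) and FGF9‐treated cells (bottom); bars are cells and the blue line is a Poisson distribution of the same mean. Uchl1 is broader than Poisson, with its peak at 6 UMIs in control and 1 UMI in FGF9‐treated cells, whereas Uchl3 follows the line in both.

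The genes that varied with Uchl1 from cell to cell were sought within each library by Spearman's rho over the thinned cells (4141 control cells with 3327 genes, and 4515 FGF9‐treated cells with 3250 genes). All cells of a set share 1 library, and the values are descriptions without a test. Mitochondrially encoded, ribosomal protein and predicted genes were ranked but are not named, so the 8 highest and 8 lowest are those of the other genes. Sohlh1, a transcription factor that spermatogonia need for differentiation, was near the top in control (rho 0.21) and stood first with FGF9 (0.31). In control the polyubiquitin gene Ubb, a source of the ubiquitin that UCHL1 acts on, came first (0.21, and 0.13 with FGF9). The aldose reductase gene Akr1b3 had 0.18 and 0.14, the microtubule regulator Stmn1 0.16 and 0.14, and the proteasome activator Psme1 0.16 and 0.14 in control and FGF9‐treated cells. Ppia, a prolyl isomerase (0.18), and the translation factors Eif4a1 (0.15) and Eef1a1 (0.15) completed the 8 highest in control. With FGF9 the 8 highest also held the N-myristoyltransferase gene Nmt2 (0.17), the actin gene Actb (0.14), the piRNA pathway gene Mael (0.14) and Igfbp6 (0.14), which encodes an IGF-binding protein. Few genes reached such values: 43 genes in control and 49 with FGF9 had a rho of at least 0.1, and the middle gene had about 0.

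At the other end, the nuclear RNA Malat1 had the lowest rho in control (-0.17) and -0.15 with FGF9. It was followed in control by the spectrin gene Sptbn1 (-0.14), Bod1l (-0.14), the ubiquitin ligase gene Herc1 (-0.12), the calcium pump gene Atp2b1 (-0.11), the cohesin loader Nipbl (-0.11), the histone demethylase gene Kdm5a (-0.11) and Atad2 (-0.10). With FGF9 the lowest were Ifitm1 (-0.18), the lactate dehydrogenase gene Ldha (-0.17), the neurofilament gene Nefm (-0.17) and Anxa2 (-0.17), then Malat1, the ATP synthase gene Atp5f1 (-0.15), Ankrd37 (-0.15) and the transferrin receptor gene Tfrc (-0.14). Sptbn1, Atp2b1, Nipbl and Kdm5a had -0.12, -0.12, -0.11 and -0.11 in that library too. All 8 genes lowest with FGF9 were also higher in the FGF9‐treated library, 6 of them at or above 0.5, beside 5.78% of all genes. Their log2 ratios were 3.36 for Nefm, 2.55 for Anxa2, 1.92 for Ankrd37, 1.23 for Ldha, 0.75 for Tfrc, 0.68 for Ifitm1, 0.29 for Malat1 and 0.21 for Atp5f1. All 8 highest with FGF9 were lower there, 4 of them at or below -0.5, beside 5.95% of all genes. Their ratios went from -1.05 for Sohlh1 and -0.94 for Igfbp6 to -0.26 for Stmn1 and -0.04 for Actb. A gene was ranked only if detected in enough cells of that library, which favours genes higher in it. Ifitm1, Nefm, Anxa2 and Ankrd37 fell short of this limit in control. The part of the limit in these counts was not tested. The 8 lowest in control were all higher with FGF9, 3 of them at or above 0.5 (5.78% of all genes). Of the 8 highest in control 7 were lower, 2 of them at or below -0.5 (5.95% of all genes). The median ratio over all genes was -0.03, and the share of ranked genes on either side of it was not counted.

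**Figure D3:**
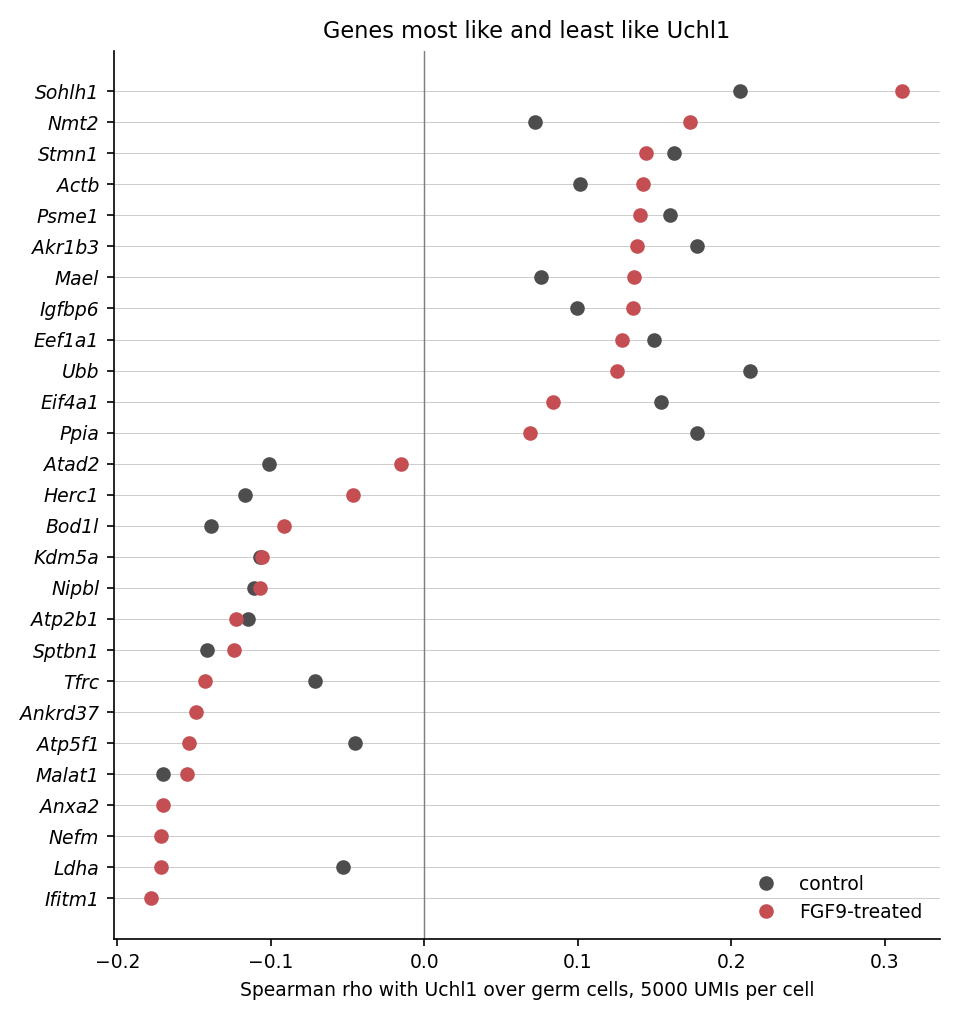
Spearman's rho with Uchl1 over germ cells thinned to 5000 UMIs (x axis) for the named genes highest and lowest in control (grey) or FGF9‐treated cells (red), ordered by the FGF9‐treated value. Genes without a grey point had a UMI in fewer than 25% of control cells. Sohlh1 lies farthest to the right with FGF9 at 0.31, and Ifitm1 farthest to the left at -0.18.

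Uchl3 had no partner of this strength. Its rho with Uchl1 was -0.01 in control and -0.03 with FGF9, and its highest values were 0.06 in control (Mrpl14, a mitochondrial ribosomal protein gene) and 0.08 with FGF9 (Chchd2, a mitochondrial protein gene). Next came Psma4, Pdcd5, Adh5 and Hspa8 in control, and Atp5f1, Cdk4, Psmb3 and Thyn1 with FGF9. None of the genes examined reached 0.1 with Uchl3 in either direction, as far as counts near 0 or 1 can show. Control cells with and without a UMI of Uchl3 had 6.62 and 6.69 Uchl1 UMIs of 5000, and FGF9‐treated cells 3.04 and 3.18.

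Germ cells were then grouped by state, using genes for stem, progenitor and differentiating spermatogonia, many of which the study used as markers for these same libraries. Uchl1 was lower with FGF9 in every state examined, and the log2 ratio ranged from -0.81 to -1.38. Uchl3 ranged from -0.08 to 0.12 over the same states. Among cells with a UMI of both Gfra1 and Ret, the receptor genes for GDNF that mark SSC, the level of Uchl1 was 1203 CPM in 415 control cells and 615 CPM in 1687 FGF9‐treated cells (log2 ratio -0.97, -1.004 to -0.933). In cells with neither it was 1398 and 695 CPM (-1.01, -1.04 to -0.97). Cells with both receptor transcripts thus had less Uchl1 than cells with neither within each library, by -0.22 in control and -0.18 with FGF9 on the log2 scale. In cells with a UMI of Etv5, an FGF-responsive factor of SSC self-renewal, the level was 1190 and 623 CPM (-0.93), and with a UMI of the ERK phosphatase gene Dusp6 1259 and 630 CPM (-0.997). With states called on cells thinned to 5000 UMIs these ratios were -1.13 and -1.08. Cells without a UMI of Etv5 had -1.03, and -1.02 by the thinned calls. Cells without a UMI of Dusp6 had -1.02 and -1.03. Which cells had the larger fold thus depended on how states were called.

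Most, but not all, progenitor and differentiation genes had a rho with Uchl1 above 0, several of them only slightly. In cells of equal depth the rho with Uchl1 was above 0 for 6 of 7 progenitor genes in control and 5 of 7 with FGF9, and for 5 of 7 differentiation genes in each library, against 0 and 1 of 6 SSC genes. The middle gene of all those ranked had a rho of about 0, so the sign alone says little. In control the highest progenitor genes were Sox3 (0.12, and 0.08 with FGF9) and Nanos3 (0.11 and 0.02). Galnt12 (0.004) and Neurog3 (0.02) were close to 0 in control. Sohlh1 (0.21 and 0.31) and Crabp1 (0.10 and 0.15) were the highest differentiation genes in both libraries. Lhx1 (-0.03 and -0.08) of the progenitor list and Sohlh2 (-0.05 and -0.10), a relative of Sohlh1, were below 0 in both. With a UMI of Neurog3, a progenitor factor, Uchl1 was 1408 and 735 CPM (-0.94, -0.97 to -0.91), against 1293 and 628 CPM without. With a UMI of Sox3 it was 1418 and 734 CPM (-0.95), against 1179 and 593 CPM without (-0.99). In the 636 control and 172 FGF9‐treated cells with a UMI of Kit, the receptor gene that comes on with differentiation, it was 1376 and 733 CPM (-0.91, -0.97 to -0.85). Within control, cells with a UMI of Kit were only 0.04 (0.016 to 0.065) above those without on the log2 scale. Cells with a UMI of the retinoic acid target Stra8 had 1402 and 696 CPM (-1.01, and -1.08 with states called on thinned cells). At equal depth the rho of Stra8 with Uchl1 was -0.0037 and -0.019. Uchl1 was also read by the KIT antibody tag on the cell surface. From the lowest to the highest quartile of tag counts, Uchl1 was 1224, 1304, 1359 and 1456 CPM in control and 572, 585, 630 and 761 CPM with FGF9. The ratio was -1.10 in the lowest and -0.94 in the highest quartile. The highest quartile exceeded the lowest by 0.25 in control and 0.41 with FGF9, and its cells were deeper, with a median of 16647 against 14229 UMIs in control and 15331 against 11683 with FGF9. By total UMIs alone the highest quartile exceeded the lowest by 0.16 and 0.37, and the part of depth in the order by KIT tag was not tested.

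Sohlh1 separated the cells most. Cells with a UMI of Sohlh1 had 1391 CPM of Uchl1 in control and 796 CPM with FGF9, a log2 ratio of -0.81 (-0.82 to -0.79). Cells without one had 1040 and 400 CPM, a ratio of -1.38 (-1.42 to -1.34). Within a library, the cells with Sohlh1 exceeded those without by 0.42 (0.39 to 0.45) in control and by 0.99 (0.96 to 1.02) with FGF9. Cells with a UMI of a gene also tend to be deeper, with a median of 14303 against 11715 UMIs for Sohlh1 in the FGF9‐treated library. When states were called on cells thinned to 5000 UMIs, the ratios were -0.75 and -1.18. Nefm behaved in the opposite way: cells with a UMI of Nefm had 1199 and 592 CPM of Uchl1 (-1.02) and cells without 1374 and 764 CPM (-0.85, -0.87 to -0.82). With states called on thinned cells the ratios for Nefm were closer, at -0.98 and -0.92.

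Cell cycle calls and depth were also compared. More cells were called S or G2/M with FGF9, since cells called G1 made up 71.7% of control and 52.2% of FGF9‐treated cells, although 37.3% and 26.0% of cells had scores within 0.05 of the limit. The ratio of Uchl1 was -1.05 in G1, -1.02 in S and -1.05 in G2/M, so it hardly differed between phases. Over quartiles of cells by total UMIs, from shallow to deep, it was -1.19, -1.13, -1.05 and -0.98. Uchl3 had -0.08 (-0.14 to -0.01) in G1 and 0.12 (0.03 to 0.21) in G2/M.

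**Figure D4:**
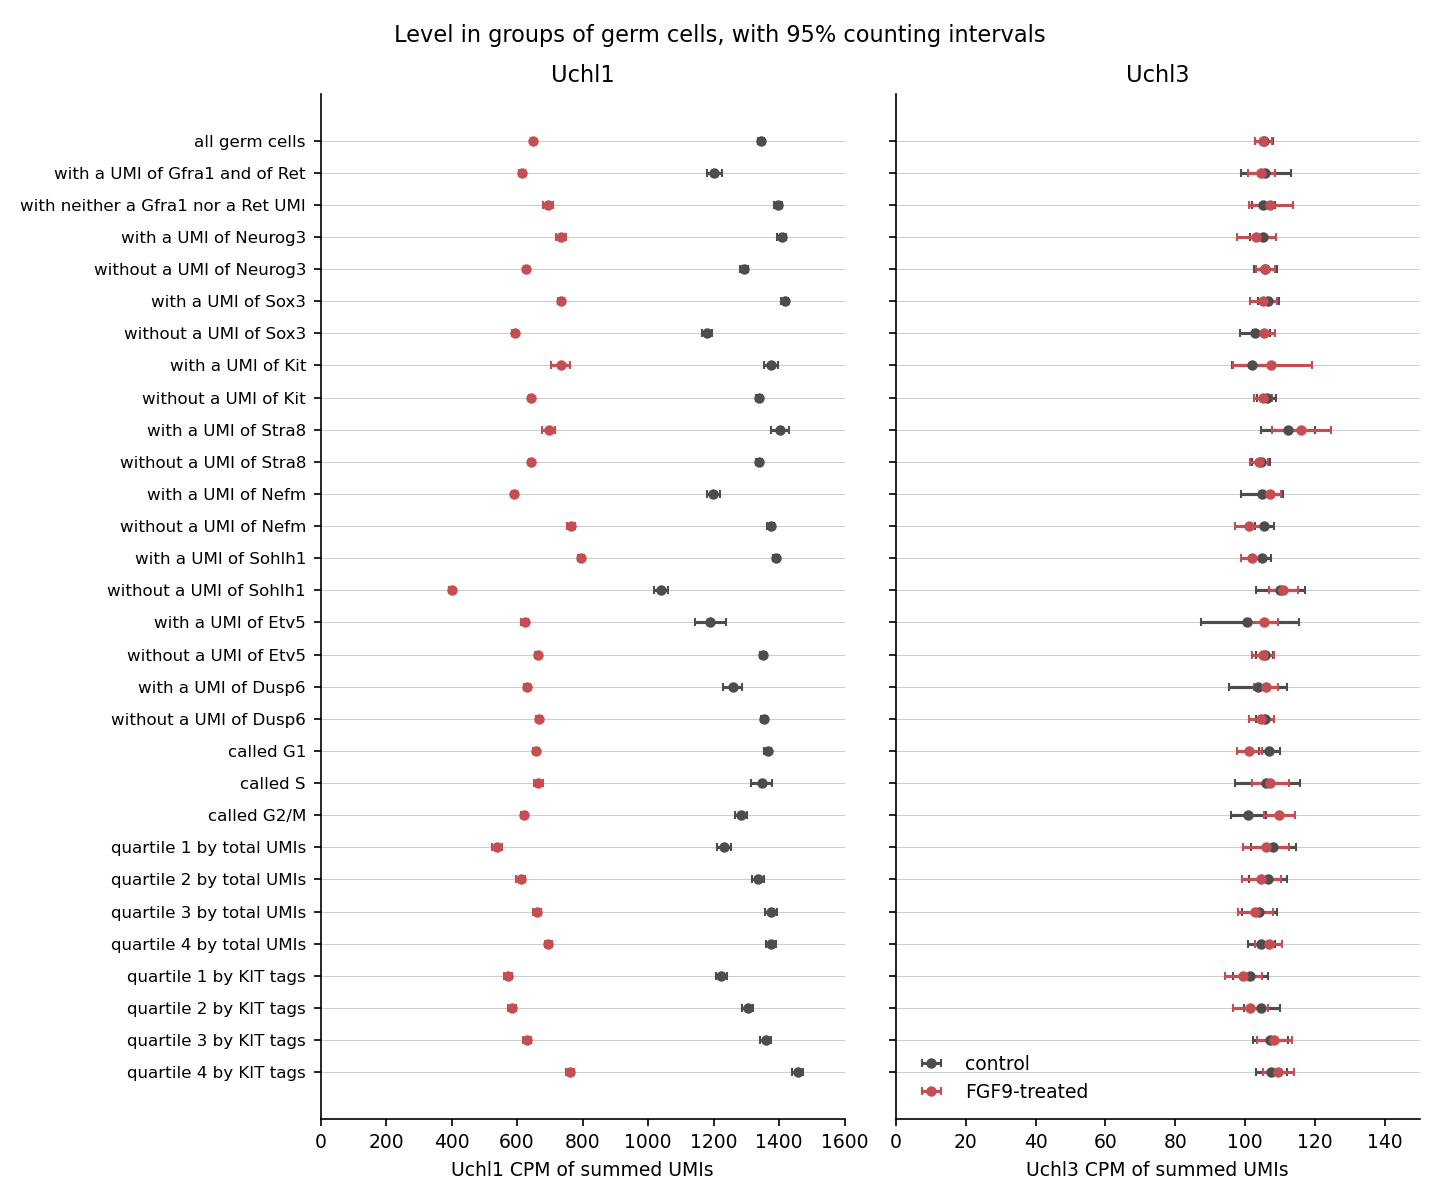
Level of Uchl1 (left) and Uchl3 (right) in CPM of summed UMIs (x axis) for groups of germ cells (rows) in control (grey) and FGF9‐treated cells (red), with 95% Poisson intervals as bars. Every red point of Uchl1 lies far to the left of its grey point, farthest in fold in cells without a UMI of Sohlh1 (400 against 1040 CPM), whereas the points of Uchl3 lie together.

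Seen from Uchl1, cells were divided within each library into quartiles of its thinned count, and the state genes were read in them. The quartiles rest on Uchl1 alone, and the readings repeat the correlations above in CPM. In control, Sohlh1 was 144, 205, 232 and 298 CPM from the lowest to the highest quartile, and with FGF9 33.6, 68.3, 118 and 193 CPM. The retinoic acid binding protein gene Crabp1 was 66.5 and 125 CPM at the ends in control and 23.5 and 75.7 CPM with FGF9. Sox3 was 66.5 and 116 CPM, and 26.2 and 49.5 CPM. Nefm ran the other way, with 40.2 and 8.53 CPM in control and 260 and 118 CPM with FGF9, as did Gfra1 with 26.9 and 9.69 CPM, and 73.6 and 43.9 CPM. Lhx1, which GDNF induces and which is on the progenitor list, had 12.8 and 5.46 CPM in control and 35.6 and 13.5 CPM with FGF9. Uchl3 had 102.7 and 102.6 CPM, and 112 and 104 CPM. Ddx4 was nearly even, at 439 and 426 CPM, and 412 and 434 CPM. The highest FGF9‐treated quartile had 1259 CPM of Uchl1 and 193 CPM of Sohlh1, against 2032 and 298 CPM in the highest control quartile. The Uchl1 levels of the quartiles follow from the sorting.

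**Figure D5:**
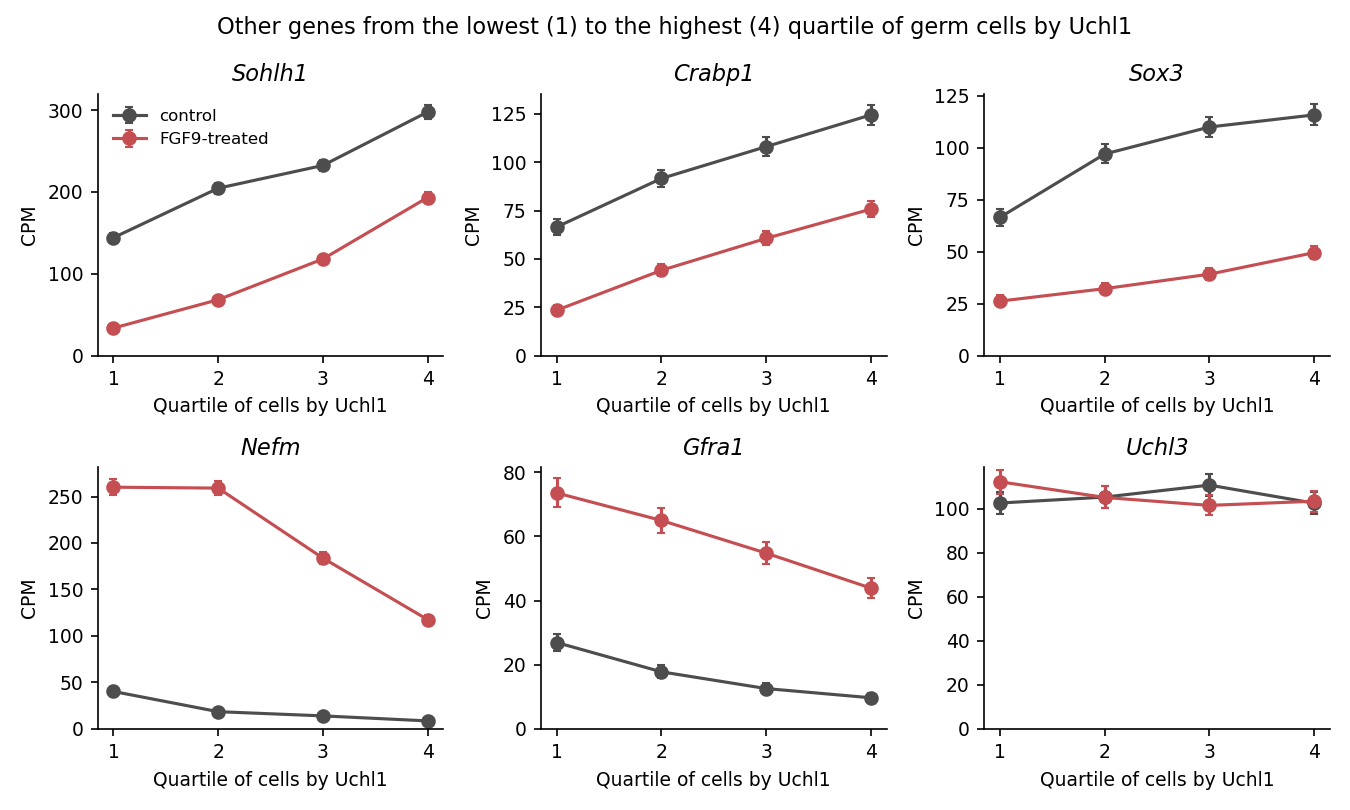
Level of 6 genes in CPM (y axis) from the lowest (1) to the highest (4) quartile of germ cells by thinned Uchl1 count, in control (grey) and FGF9‐treated cells (red), with 95% Poisson intervals as bars. Sohlh1, Crabp1 and Sox3 are higher where Uchl1 is higher in both libraries, Nefm and Gfra1 are lower, and Uchl3 is nearly even.

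The surrounding ubiquitin system was summarised by lists of related genes. The polyubiquitin gene Ubb was at 2999 and 2534 CPM, a log2 ratio of -0.24. The 7 genes of the NEDD8 pathway, to which UCHL3 is linked, all lay between -0.5 and 0.5, with a median of -0.11 beside -0.03 over all genes and with the NEDD8 protease gene Senp8 lowest at -0.34. So did the 5 genes for deubiquitinases and receptors at the proteasome (median -0.10), of which Psmd7, a lid subunit, was at -0.43 and Usp14 at -0.31. Of 50 other deubiquitinase genes with at least 10 CPM, 2 were at or below -0.5, Stambp (-0.70) and Usp20 (-0.66), and none was at or above 0.5; Usp1, which acts in DNA repair, came nearest with 0.49. Of 30 activating and conjugating enzyme genes 2 were at or above 0.5, the mitotic Ube2c (0.73) and Ube2q2 (0.69), and none was at or below -0.5. Over all genes 5.95% were at or below -0.5 and 5.78% at or above 0.5, so these few members do not set the lists apart. With 81 genes in 8877 at or below -1, none of these lists held another gene beyond that limit.

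Uchl1 is best known from neurons. Of 16 neuronal genes listed, 3 reached 10 CPM: Nefm was higher with FGF9 (3.36), while Nefh (-0.16) and Ina (-0.29), further intermediate filament genes, had ratios closer to 0. In control these 3 filament genes were present at 19.7 (Nefm), 94.7 (Nefh) and 28.9 CPM (Ina). Gap43, Stmn2 and Snap25, which mark growth cones and synapses, had 6, 7 and 44 UMIs there. Others under 10 CPM had more, up to 371 UMIs for Tubb3 and 201 for Stmn3. Among these low genes Nefl (2.76) and Eno2 (2.63) were higher with FGF9, while Prph (-2.62) and Stmn3 (-1.28) were lower. Among markers of spermatogonia, 4 of 5 measured SSC genes were at or above 0.5, beside 5.78% of all genes. Of 6 measured differentiation genes 4 were at or below -0.5, beside 5.95%. Many genes of these lists are those by which the study named cell types in these libraries, so their direction is not independent evidence. None of the 7 general germ cell genes was beyond either limit.

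RNA free in the droplets can add UMIs of an abundant gene to any barcode, so Uchl1 was read in the barcodes removed as feeder-type. There were 31 in control and 63 in the FGF9‐treated library, and the median feeder-type barcode had no Uchl1 UMI in either. Summed, they held 292 CPM in control (21.7% of the germ cell level) and 46.1 CPM with FGF9 (7.12%). For Dazl, which fibroblasts do not make, the sums were 15.6% and 5.59% of the germ cell level, and 5 barcodes held 80.7% of the Uchl1 UMIs in control and 66.3% with FGF9. When the feeder-type level was subtracted in each library, the log2 ratio of Uchl1 was -0.81. As a few barcodes held most of that sum, it is not a level shared by all barcodes. The value of -0.81 is therefore a rough alternative and not a corrected ratio. Near the mitochondrial limit of the cell filter, control cells with 18 to 20% mitochondrial UMIs, 24 in number, had 1330 CPM of Uchl1, and the 14 barcodes just outside, with 20 to 22%, had 728 CPM. The FGF9‐treated library had 517 CPM in 34 such cells and 607 CPM in 18 such barcodes. The summed level of the fibroblast genes in germ cells was higher in the FGF9‐treated library for Vim (3.65 and 18.5 CPM) and S100a6 (7.67 and 16.0 CPM) and lower for Col1a1 (22.3 and 12.3 CPM). Over all 8 listed fibroblast genes it was 166 and 231 CPM. Of 5 measured, 3 were at or above 0.5 and 1 at or below -0.5, beside 5.78% and 5.95% of all genes. Col1a2 and Col3a1 were under 1 CPM in both libraries. The part of the fibroblast genes in the result was not tested.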

How the data were processed

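The members, gene lists and cell groups were chosen with earlier results of these data known. The authors deposited raw UMI counts per gene and barcode, made with Cell Ranger (version 3.1.0 in the matrix header) on mm10 with GENCODE vM23, and name Seurat 3.1 for later steps. The deposited counts precede the authors' cell filter, and barcodes, gene names and KIT tag counts came with them. Gene positions and sequences are from an earlier GENCODE release for mm10 than the one used for the counts.

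Counts were summed over germ cells and divided by the library's total (CPM). Ratios carry exact conditional binomial intervals, CPM exact Poisson intervals and shares exact Clopper-Pearson intervals, all at 95%. PCR duplicates are collapsed by UMIs, and the intervals cover counting error only. With 1 library per treatment there is no test and no p-value. Genes needed 10 CPM in a library for the background. Correlations used genes with a UMI in at least 25% of thinned cells. A gene group was a cell with at least 1 UMI, so groups depend on depth. Cell cycle calls used 43 S and 54 G2/M genes, scored against genes matched in 24 bins of expression. No doublet caller was applied; an alternative left out cells above 2.5 times the median UMIs. Ratio, thinning, correlation and CV steps were tested on simulated data. Genes were named by a rule. It took the members, their family and antisense gene, and the state genes. In each library it took the 8 highest and 8 lowest by rho with Uchl1 and the 5 highest with Uchl3. Mitochondrially encoded, Rpl, Rps, predicted and clone-named genes and repeated symbols were ranked by rho but not named. Up to 4 members a list were added, with more for neuronal and fibroblast genes. Tools were scipy 1.17.1, scanpy 1.11.5 and biopython 1.88 under Python 3.11.15, and edgeR 4.0.16 and DESeq2 1.42.0 under R 4.3.3, the last pair for scaling factors alone. The list of ubiquitin precursor genes is not reported here as a whole.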

Additional observations from a re-analysis of the deposited data

How the results depend on the processing

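The direction of the Uchl1 difference was the same under all 15 alternatives run. Its log2 ratio of -1.05 was -1.08 without the limit on Vim and S100a6, -1.02 with TMM scaling, -1.08 as a mean over cells, -1.09 with cells thinned to 5000 and -1.09 to 8000 UMIs. After the data were seen, subtraction of the feeder-type level (-0.81) and the median over cells (-1.29) were added. The other 8 alternatives left it within its counting interval. For Uchl3, the ratio of -0.0023 was -0.079 in cells called G1 alone, the only value of 14 outside its counting interval. The number of genes at or below -1 was 1457 with no minimum level and 45 at 20 CPM, against 81; at or below -0.5 it was 3759 and 323, and at or above 0.5 3588 and 320. Of the 20 genes most like Uchl1 with FGF9, 13 remained in cells called G1 alone. With states called on cells thinned to 5000 UMIs, 11 of 60 ratios of Uchl1 and Uchl3 by state moved outside their counting intervals. No paired analysis was possible because there was 1 library per treatment, both with the same replicate number. The depth limits Uchl3, at about 1 UMI per 10,000, to sums over many cells, and culture-to-culture variation was not measured.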
